A study of Caenorhabditis elegans with 8 samples.

Results

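The question here is whether loss of seip-1 acts on a transcript alike in embryos and in young adults of Caenorhabditis elegans, or differently. For every gene the knockout effect in embryos was set against the knockout effect in adults, and genes were sorted by the stage that carried the effect and by whether the directions opposed each other. The comparison covered 16832 genes, out of 20008 named genes on the array, for which the 2 arrays of 1 or more groups stood well above background. Gene expression was measured on 8 single-colour arrays, in 4 groups of 2 arrays each. Wild-type embryos and wild-type young adults were of the strain N2. Knockout embryos and knockout young adults carried the label seip-1_knock_out, and the labels give no further allele or agent. The adults were collected at 52 h after the L1 stage. Embryos had been released by hypochlorite from gravid young adults of that age, with no embryonic age given in the labels. Each sample pooled many animals, and whether replicates came from separate cultures is not labelled, so p-values cover only the spread between these samples, which may be technical.

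Seipin is a membrane protein of the endoplasmic reticulum that sits where lipid droplets form and keeps their size and number in order. In worms the oocyte is loaded with lipid and yolk made largely in the mother's intestine, and after fertilisation the embryo builds an eggshell whose lipid-rich inner layer is the permeability barrier. Transcripts of an early embryo are mostly maternal, while later embryos express the genes of muscle, nerve, gut and skin.

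Every value below is on the log2 scale unless a fold is named. A level is the processed signal of a gene's probe relative to the 75th percentile of its array. The embryo effect is the mean level in knockout embryos minus that in wild-type embryos, the adult effect is the same in adults, and the difference is the embryo effect minus the adult effect. A positive difference thus marks a gene whose knockout level, against wild type, was higher in embryos than in adults. The difference was tested with limma over all 8 arrays (n = 2 arrays per group for every value), a ± is the standard error of that model, and a gene passed at a Benjamini-Hochberg adjusted p under 0.05. All embryo arrays lay on 1 slide and all adult arrays on another, so stage and slide cannot be told apart, although each knockout effect was measured within a slide. Within a slide, genotype and position cannot be told apart. Wild-type embryos lay at positions 1 and 2 and knockout embryos at 3 and 4, while knockout adults lay at 1 and 2 and wild-type adults at 3 and 4. The order of the genotypes was thus reversed between the stages, and an effect of position was not tested.

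Between 65.7% and 75.5% of probes were well above background on an array, with 0 saturated spots. The share was 65.7% and 66.6% in wild-type embryos, 75.5% and 71.9% in knockout embryos and 68.3% to 70.8% in adults. The median probe intensity was 74.7 and 77.4 in wild-type embryos, 265 and 214 in knockout embryos and 218 to 276 in adults. The signal distribution of the embryo arrays thus differed by genotype. Precision is limited by how few arrays there are. The targeted gene checked the labels in both stages. The probe of seip-1 had intensities of 3292 and 3871 in wild-type embryos and of 3120 and 2966 in wild-type adults, against 5.19 and 6.72 in knockout embryos and 5.74 and 6.97 in knockout adults. No knockout array was above background, so seip-1 was at least 311-fold lower in embryos and at least 114-fold lower in adults. Its difference between stages (-0.91 ± 0.27) lies between 2 bounds and is not a measurement.

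The knockout effect differed between stages for most genes, and the embryos carried it. The difference passed the test in 12223 of 16832 genes (72.6%), with 6567 higher in embryos (39%) and 5656 lower (33.6%). The embryo effect was the larger one in 12071 of these (98.8%), and the adult effect was the larger one in 152. In 11040 of them (90.3%) the adult effect was smaller than 0.5 in either direction. The standard deviation of the effects over all measured genes was 1.83 in embryos and 0.38 in adults. The balance of directions depends on the scaling: with arrays scaled to their median, 4527 differences were higher and 8569 lower in embryos, and the median over all genes went from 0.10 to -0.98. With quantile normalization 5673 were higher and 5681 lower, with a median of -0.06.

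Each stage alone gave very unequal counts. In embryos 13068 of 15397 genes passed (84.9%), 6863 upward (44.6%) and 6205 downward (40.3%), and 1245 of these did not pass for the difference. In adults 15 of 15008 passed (0.0999%), and 790 had an unadjusted p under 0.05 (5.26%). The adult count moved between 2 and 74 when any 1 array was left out: it was 2 without either wild-type adult array, 3 without either wild-type embryo array, 5 without either knockout embryo array, and 74 and 23 without knockout adult arrays 1 and 2. Of the 15 genes, 14 also passed for the difference, the exception being F07C3.9. In 397 genes the difference passed although neither stage did on its own, where a stage in which the gene was not tested counts as not passing. Across the 16832 genes the embryo and adult effects correlated at r = -0.13, and at -0.14 without seip-1. That correlation is across genes, which are not independent, and is given as a description. Among the genes called for the difference, 7826 (64%) had estimates of opposite sign, but in 6868 of those (87.8%) the adult effect was below 0.5.

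Genes were sorted as follows. A stage was said to move a gene where its effect was at least 2-fold (1 on the log2 scale) and its knockout arrays were both higher, or both lower, than either wild-type array. Of the genes called for the difference, 10249 were moved in embryos alone (60.9% of those measured), 48 in adults alone (0.285%) and 160 in opposite directions (0.951%). Another 86 genes (0.511%) were moved in the same direction in both stages, whether or not the difference was called. Irrespective of the difference, embryos moved 6466 genes upward (38.4%) and 4726 downward (28.1%), and adults 126 (0.749%) and 228 (1.35%). These classes were built from the same arrays as the test, so their sizes are a description. The plot of the embryo effect against the adult effect shows the wide and flat cloud that these numbers describe.

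**Figure D1:**
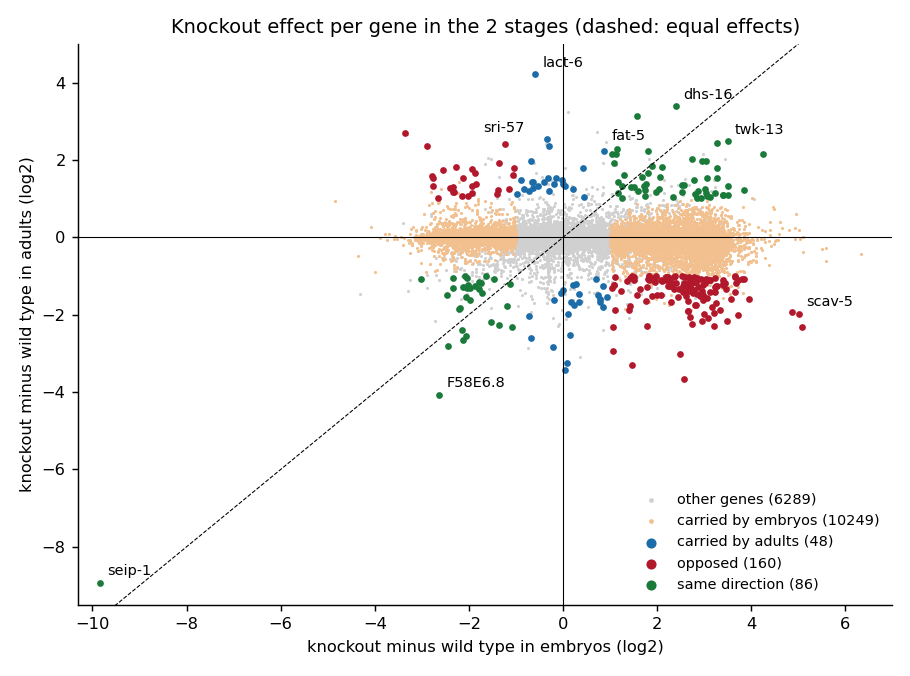
Knockout minus wild type in embryos (horizontal axis, log2) against the same in adults (vertical axis, log2), 1 point per measured gene, coloured by class, with class sizes in the legend. Effects spread with a standard deviation of 1.83 in embryos and 0.38 in adults. The targeted gene lies alone at the lower left, and both of its effects are set by background.

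Of the genes carried by embryos, 5890 were higher in the knockout (35%) and 4359 lower (25.9%), with median adult effects of -0.07 and 0.02. Their median wild-type levels differed: -4.15 in wild-type embryos for the genes that were higher and 1.68 for those that were lower. Within this class, among genes with a gene name seen in all groups, the largest positive difference was in bah-1, a gene needed for bacterial biofilm to stick to the worm's head. It read -5.03 and -5.24 in wild-type embryos against 0.26 and -0.48 in knockout embryos, but -4.73 and -5.16 in wild-type adults and -5.55 and -4.42 in knockout adults. The embryo groups lay far apart and the adult groups overlapped, which gave a difference of 5.07 ± 0.59 (adjusted p = 5.86e-04). The nuclear hormone receptor gene nhr-73 was steadier, with a difference of 4.81 ± 0.21 (adjusted p = 2.56e-04) and an adult effect of 0.19.

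The other large positive differences among named genes rested in part on spread adult arrays. The inositol transporter gene hmit-1.1 read 1.05 and -0.55 in wild-type adults and -2.33 and 0.19 in knockout adults, groups that overlap. Its difference was 4.69 ± 1.28 (adjusted p = 0.0151), its embryo effect alone was 3.38, and the call was lost without knockout embryo array 1 (adjusted p = 0.0590). The difference was 4.81 ± 1.11 for pals-24, of a family linked to defence against intracellular pathogens, 5.0 ± 1.44 for idpp-8 and 4.83 ± 1.14 for lrpc-1, and in each of these 3 genes the adult groups overlapped. The call for idpp-8 was lost without array 1 of wild-type embryos, knockout embryos or wild-type adults, with an adjusted p of at most 0.0705. ZK1025.3, known by its sequence name alone, had a difference of 5.85 ± 0.84.

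Large negative differences among named genes included those of histones, transcription factors and a collagen. The histone gene his-47 read 1.95 and 1.78 in wild-type embryos against -1.58 and -1.17 in knockout embryos, while the 4 adult arrays lay between -1.15 and -0.84. The difference was -3.32 ± 0.28 (adjusted p = 2.68e-04), with overlapping adult groups. The endoderm GATA factor gene end-3 had a difference of -3.22 ± 0.48, the T-box gene tbx-36 of -3.09 ± 0.36, the histone gene his-61 of -3.11 ± 0.28 and sdz-37 of -3.19 ± 0.96. The call for sdz-37 was lost without any 1 embryo array and without wild-type adult array 1 (adjusted p up to 0.0736). In the collagen gene col-78 both stages were apart: -2.78 in embryos and 0.88 in adults, a difference of -3.65 ± 0.25. T12A2.3, known by its sequence name alone, had a difference of -3.96 ± 1.01. Histone and T-box genes have close relatives, and hybridisation of one gene's RNA to another's probe was not measured.

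Lists of tissue and stage markers were counted against all measured genes, of which 39% passed upward and 33.6% downward with a median difference of 0.10. In the oocyte and germline list 36 of 37 genes passed downward and 0 upward, with a median difference of -2.37. In the adults of the same list the effects ran from -0.21 to 0.19, and the P granule gene pgl-1 read 2.72 and 2.96 in wild-type embryos, 0.19 and 0.28 in knockout embryos, and between 3.26 and 3.49 on the 4 adult arrays. The early zygotic list passed downward in 30 of 32 genes (median -2.49), and the lowest adjusted p was that of the T-box gene tbx-30, with a difference of -3.24 ± 0.27 and adult arrays at background. The cell cycle and replication list passed downward in 32 of 33 (-1.70), the maternal fate regulators in 15 of 19 (-1.90) and the core histones in 22 of 26 (-1.85).

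Markers of differentiated tissues passed in the other direction. Of 33 muscle genes 30 passed upward and 0 downward (median difference 2.75). The tropomyosin gene lev-11 read 1.81 and 1.76 in wild-type embryos, 5.07 and 4.77 in knockout embryos and 5.26 to 5.37 on the adult arrays. The knockout embryos thus stood far above the wild-type embryos, and no adult array stood apart from the others. Of 36 neuron and cilium genes 31 passed upward and 2 downward (2.78), with bbs-1, a gene of cilium assembly at background in adults, at 3.21 ± 0.22. Of 33 cuticle collagen genes 20 passed upward and 1 downward (2.11), and of 29 genes of epidermis and embryonic sheath 18 and 0 (1.40). Lower early markers and higher late markers came from the same embryo arrays as the embryo effects given here, and their part in the differences was not tested. The labels give no embryonic age. A different mix of embryo ages and an effect of the knockout at equal age therefore cannot be told apart. In RNA from whole embryos, fewer cells of a type and less RNA per cell cannot be told apart.

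The eggshell and permeability barrier list, which bears on the study's title, was carried by embryos as well. Of 30 genes 23 passed downward and 1 upward (median difference -1.60), while the adult effects ran from -0.14 to 0.28 and no adult effect passed. The egg activation gene egg-3 had a difference of -2.62 ± 0.33 and gna-2, of the chitin precursor pathway, of -2.59 ± 0.37, with adult effects of -0.00 and -0.02. The UDP-glucose dehydrogenase gene sqv-4 went the other way at 2.01 ± 0.29. The median of the oocyte and germline list was further from 0 than that of the eggshell list. Of 38 sperm genes 4 passed upward and 10 downward (-0.44), with the sperm gene regulator spe-44 at -2.19 ± 0.27. For spe-10 the wild-type embryos were at background and the knockout embryos at least 2.40-fold higher, and its call for the difference was lost with normexp correction (0.087, adjusted p = 0.822). Of 5 yolk genes 2 passed upward, vit-2 at 2.13 ± 0.27 and vit-1 at 2.29 ± 0.34, both with close relatives on the array.

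**Figure D2:**
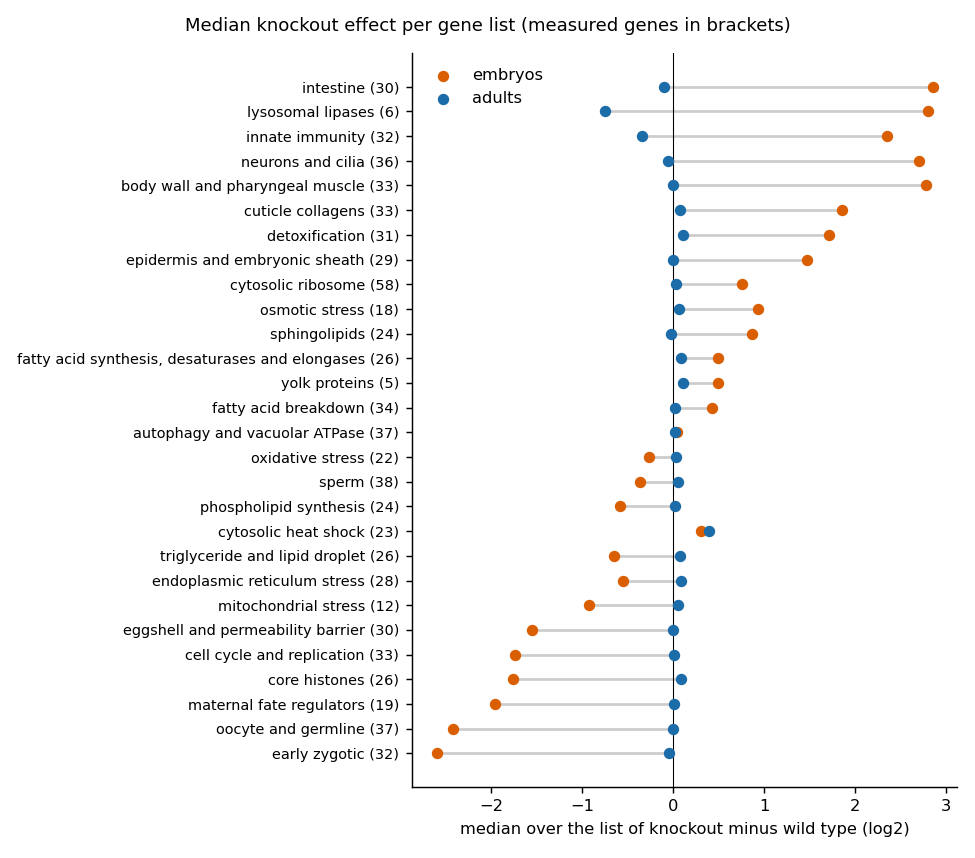
Median knockout effect of each gene list in embryos (orange) and in adults (blue), on the log2 scale, with the number of measured genes in brackets and lists in order of their median difference. Embryo medians run from -2.60 (early zygotic) to 2.85 (intestine), while most adult medians lie close to 0. The lysosomal lipase, innate immunity and heat shock lists have the adult medians furthest from 0, at -0.75, -0.34 and 0.40.

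The opposed class held 160 genes: 133 were higher in knockout embryos and lower in knockout adults (0.79% of those measured), and 27 were the reverse (0.16%). Of the 133, 124 passed in embryos, 2 passed in adults, and 85 of the 98 tested in adults had an unadjusted adult p under 0.05. The class takes only genes with an adult effect of at least 2-fold and adult groups apart on these same arrays. Low unadjusted adult p-values therefore follow in part from the sorting and are no separate support for an adult fall. The 133 genes had median effects of 2.66 in embryos and -1.25 in adults. The median level of the class was -6.08 in wild-type and -3.52 in knockout embryos, and among adults it was -4.38 in wild type and -5.76 in the knockout. Wild-type embryos thus had the lowest median and knockout embryos the highest, with the adults in the opposite order by genotype. Only 56 of the 133 and 5 of the 27 were seen above background in all 4 groups. Just outside the class, scl-2 and clec-69 had adult effects that round to -1.0 and did not reach 2-fold, and just inside it F08A7.1 and nhr-55 had adult effects of -1.0.

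The adult side of this class rested unevenly on the arrays. In 114 of the 133 genes knockout adult array 1 read lower than array 2, and the median distance below wild type was -1.55 on array 1 and -1.02 on array 2, against 0.03 and -0.04 over all measured genes. Without knockout adult array 2 the class held 641 genes, and without wild-type adult array 2 it held 428. Without any other single array it held between 148 and 193. It fell to 36 genes with normexp background correction, all higher in knockout embryos, and to 57 among genes seen on all 8 arrays. The 2 orientations held 89 and 56 genes with median scaling and 82 and 50 with quantile normalization, in place of 133 and 27. Across these 2 scalings and normexp correction 29 genes kept the class, all higher in knockout embryos. They include clec-4, clec-66, lys-2, lipl-5, gba-4, acox-1.5, scav-4, scav-5, pgp-1, nhr-8 and F49F1.5. The other genes of the class named below did not keep it.

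C-type lectins, whose carbohydrate-binding domain occurs in many secreted gut and skin proteins, were the most frequent named kind in the opposed class, a family looked at after its values were seen. Of 178 measured clec genes 19 were opposed, against 0.951% of all genes, each of them higher in embryos and lower in adults. On the adult arrays 51 clec genes had both knockout arrays below both wild-type arrays (28.7%, against 14.9% of all genes), and 16 had them above (12.6% of all genes). Without knockout adult array 1 or 2 the lower ones were 93 (52.2%, against 41.5% of all genes) and 87 (48.9%, against 36.9%), and without wild-type adult array 1 or 2 they were 67 and 68. The gene clec-4 read -2.89 on both wild-type embryo arrays and 0.36 and -0.21 on the knockout embryo arrays. In adults the gene read 1.28 and 0.55 in wild type compared with -1.88 and -0.62 in the knockout. Neither pair of groups overlapped, and the effects of 2.96 and -2.17 gave a difference of 5.13 ± 0.64 (limma adjusted p = 7.26e-04). The gene clec-66 read -0.86 and -0.79 in wild-type compared with 2.79 and 2.06 in knockout embryos, and 3.07 and 2.95 in wild-type compared with 0.96 and 1.66 in knockout adults. The knockout was again higher in one stage and lower in the other without overlap, with a difference of 4.95 ± 0.44 (adjusted p = 2.85e-04), and its other probe gave 5.15. The number of opposed clec genes was 32 without knockout adult array 2 (of 641 opposed genes), between 16 and 24 without any other array, 15 with median scaling, 12 with quantile normalization and 5 with normexp correction.

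The innate immunity list held 6 of the opposed genes among 32 measured: clec-4, clec-66, clec-41, clec-67, the lysozyme gene lys-2 and irg-6, a gene induced by infection. Over the list 25 genes passed upward for the difference and 2 downward, with a median of 2.85. In 20 of the 32 both knockout adult arrays lay below both wild-type adult arrays (62.5%, against 14.9% of all genes), and in 8 above (12.6% of all genes). With median scaling, quantile normalization and normexp correction the number below was 19, 21 and 20. Knockout adult array 1 was the lower one in 25 of the 32. The gene lys-2 read 3.94 and 3.48 in wild-type adults and 2.41 and 2.73 in knockout adults, and -2.98 and -2.84 in wild-type compared with -0.25 and -1.02 in knockout embryos. Both stages were apart in opposite directions, with a difference of 3.41 ± 0.42 and an adult adjusted p of 0.474 in the same limma fit. Other members were carried by embryos: the lysozyme gene lys-8 had a difference of 3.29 ± 0.26, and the saposin-like spp-18 of 3.98 ± 0.32 with an adult effect of -0.92. The antimicrobial peptide gene nlp-31 was one of the 2 that passed downward, at -1.07 ± 0.23, a call lost with quantile normalization (-0.47, adjusted p = 0.0916).

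Several opposed genes belong to the handling of lipids. The lysosomal lipase gene lipl-5, whose product splits stored fat, read -5.50 and -5.83 in wild-type compared with -1.86 and -2.12 in knockout embryos, and 4.76 and 4.96 in wild-type compared with 3.84 and 3.51 in knockout adults. It was far lower in embryos than in adults in both genotypes, and the knockout arrays lay above wild type in embryos and below it in adults. Its difference was 4.87 ± 0.28 (adjusted p = 2.56e-04), with effects of 3.68 in embryos and -1.19 in adults. The related lipl-2 had effects of 3.37 and -0.86, just short of 2-fold in adults, and a difference of 4.23 ± 0.21. Of the 6 measured lysosomal lipases 4 passed upward and 1 downward, lipl-7 at -0.91 ± 0.32, whose call was lost when any array except knockout embryo array 2 was left out, with quantile normalization and under each replicate block. In 3 of the 6 both knockout adult arrays lay below both wild-type adult arrays, and in 2 above (14.9% and 12.6% of all genes). Only 3 of the 6 were seen above background in all 4 groups.

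The glucocerebrosidase-related gene gba-4, of sphingolipid breakdown, read -6.11 and -6.13 in wild-type embryos against -2.07 and -2.88 in knockout embryos. In adults the gene read 2.15 and 2.42 in wild type compared with 1.04 and 0.72 in the knockout. No groups overlapped within a stage, and the difference was 5.05 ± 0.40 (adjusted p = 2.56e-04), with 4.58, 4.45 and 4.50 from its other 3 probes. The acyl-CoA oxidase gene acox-1.5, of peroxisomal fatty acid breakdown, had effects of 3.33 and -1.88 and a difference of 5.21 ± 0.69 (adjusted p = 9.04e-04). Its knockout adult arrays read -1.75 and -0.11, unequal but both below the wild-type values of 1.07 and 0.84. The scavenger receptor gene scav-5, a relative of the fatty acid receptor CD36, was not above background in wild-type embryos, and its knockout level there was at least 23.5-fold higher. In adults scav-5 read -0.58 on both wild-type arrays and -3.05 and -2.05 in the knockout. Its relative scav-4 was opposed too, with effects of 3.40 and -1.11.

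The peroxisomal enzyme gene ech-9 and the carnitine palmitoyltransferase gene cpt-3, both on the list of fatty acid breakdown, were opposed in different orientations. The gene ech-9 lay at background in the embryos of the wild type, at least 2.24-fold below the knockout, with an adult effect of -3.65 ± 0.87 from knockout arrays at -8.64 and -6.26. The gene cpt-3 read -2.06 and -2.60 in wild-type compared with -5.25 and -4.73 in knockout embryos, and -5.16 and -4.78 in wild-type compared with -3.74 and -4.15 in knockout adults. It was the only gene with a gene name of its orientation seen in all 4 groups, and its difference was -3.69 ± 0.41 (adjusted p = 4.96e-04). Over the 34 measured genes of the list 15 passed upward and 9 downward, with a median of 0.40 that turns negative under median scaling. The branched-chain enzyme gene acdh-1 (2.69 ± 0.20) and the acyl-CoA synthetase gene acs-17 (2.19 ± 0.23) were carried by embryos.

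**Figure D3:**
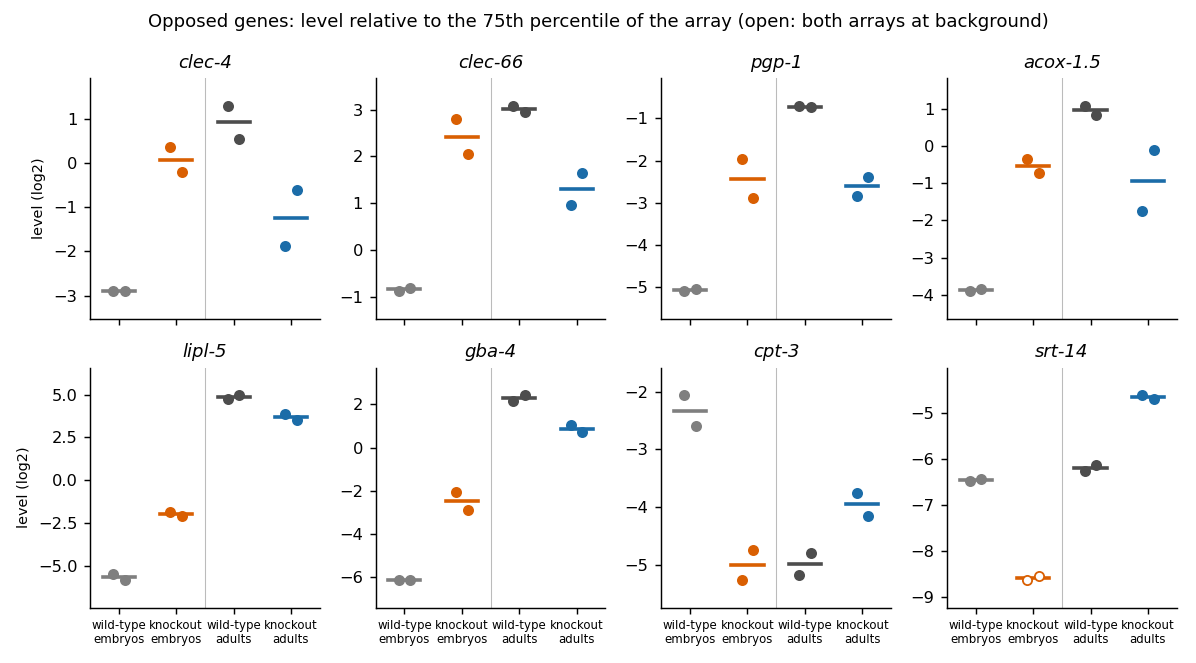
Level of 8 opposed genes on each of the 8 arrays (points) with group means (bars), on the log2 scale relative to the 75th percentile of the array, with open points where both arrays of a group were at background. In the upper 4 genes and in lipl-5 and gba-4 the knockout lies above wild type in embryos and below it in adults, and in cpt-3 and srt-14 the order is turned.

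Genes of the intestine and of transport were among the remaining opposed genes. The ABC transporter gene pgp-1, a P-glycoprotein of the intestine, read -5.09 and -5.06 in wild-type compared with -1.97 and -2.89 in knockout embryos, and -0.71 and -0.73 in wild-type compared with -2.84 and -2.39 in knockout adults. Its difference was 4.54 ± 0.44 (adjusted p = 3.45e-04). On the intestine list 24 of 30 genes passed upward and 4 downward (median 3.04), 2 were opposed (pgp-1 and the cathepsin gene cpr-3), and both knockout adult arrays lay below wild type in 12 and above it in 3 (14.9% and 12.6% of all genes). The gene gfi-1 had a difference of 3.54 ± 0.27, and the endoderm factor gene end-1, at background in adults, one of -1.80 ± 0.31. The nuclear receptor gene nhr-8, which acts in sterol and xenobiotic handling, had effects of 2.76 and -1.45 with small errors (difference 4.21 ± 0.23, adjusted p = 2.56e-04, adult adjusted p = 0.0691). It was named after its values were seen, as were scav-4, lys-2, cpr-3 and ech-9.

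The BTB and MATH domain genes bath-47 and bath-26, which lie next to each other, were opposed with large errors. The gene bath-47 read -3.42 and -3.80 in wild-type adults and -6.89 and -4.63 in knockout adults, with an embryo effect of 3.49 and a difference of 5.64 ± 0.97. The gene bath-26 read -5.06 and -5.60 in wild-type compared with -8.84 and -5.83 in knockout adults, where its second array lay close to wild type, and its difference was 5.73 ± 1.25. F49F1.5, known by its sequence name alone, had effects of 2.47 and -3.02 and a difference of 5.49 ± 0.59. Of the 133 genes of this orientation, 7 pairs were neighbours in the reference annotation.

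In 4 opposed genes the adult effect passed on its own. None of the 4 kept the class under median scaling, quantile normalization and normexp correction alike. Y38H8A.1 read -1.57 and -1.77 in wild-type compared with 0.05 and 0.18 in knockout embryos, and -2.79 and -2.99 in wild-type compared with -5.51 and -4.85 in knockout adults. It rose in embryos and fell in adults, with a difference of 4.08 ± 0.33 (adjusted p = 2.59e-04). C52E2.5 was at least 4.18-fold higher in knockout embryos and at least 1.73-fold lower in knockout adults. The chemoreceptor gene sri-57 read -3.18 and -3.34 in wild-type compared with -4.68 and -4.32 in knockout embryos. In adults the wild type was at background, the knockout at least 1.31-fold above it, and its difference was -3.64 ± 0.30. The chemoreceptor gene srt-14 had an adult effect of 1.54 and was at least 1.43-fold lower in knockout embryos, with a difference of -3.68 ± 0.19. T08B6.1, known by its sequence name alone, had effects of -2.77 and 1.55.

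The adults alone moved 48 genes, 24 upward and 24 downward (0.143% each), of which 13 and 7 were seen in all 4 groups. In 47 of the 48 the embryo effect was under 2-fold. The count was 114 without knockout adult array 1 and 142 without knockout adult array 2, between 40 and 66 without any other array, and 13 among genes seen on all 8 arrays. Of these genes 5 keep the class under median scaling, quantile normalization and normexp correction alike: fat-5, hsp-16.2 and fipr-22 upward, and dod-22 and cest-1.1 downward.

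Small heat shock genes, whose products hold unfolding proteins in solution, stood out among the genes higher in adults alone. The gene hsp-16.2 read 1.24 and 1.23 in wild-type adults and 3.21 and 2.87 in knockout adults, a 3.49-fold rise. In embryos it read 5.06 and 4.90 in wild type compared with 5.37 and 5.42 in the knockout, already high in both genotypes and 1.33-fold apart. The difference was -1.39 ± 0.23 (limma adjusted p = 0.00192). For hsp-16.1 the adult arrays read 3.54 and 3.58 in wild type compared with 5.13 and 4.73 in the knockout, while the embryo arrays overlapped between 6.33 and 6.56. Its difference was -1.37 ± 0.25 (adjusted p = 0.00300). The differences were -1.70 ± 0.26 for hsp-16.41 and -1.83 ± 0.26 for hsp-16.48, with adult effects of 1.55 and 1.42 that did not pass alone (adult adjusted p = 0.0767 and 0.121). With median scaling, hsp-16.1, hsp-16.41 and hsp-16.48 had embryo effects of -1.04, -1.20 and -1.46 and counted as opposed, while the adult effects hardly moved. These genes occur in near-identical copies, and their probes may not tell the copies apart. Not all hsp-16 genes were carried by adults: hsp-16.20 was carried by embryos, with effects of -1.87 and 0.37. The gene hsp-16.21 was moved in neither stage, with effects of -0.29 and 0.72 and a difference of -1.01 (limma adjusted p = 0.0449). That call was lost with normexp correction (-0.58, adjusted p = 0.0607).

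Over the cytosolic heat shock list 7 of 23 genes passed upward for the difference and 11 downward, with a median of -0.52. In 16 of the 23 both knockout adult arrays lay above both wild-type arrays (69.6%, against 12.6% of all genes), and in 0 below. With median scaling, quantile normalization and normexp correction the number was 15, 15 and 16. The adult effect was the larger one in 6 called members: hsp-16.1, hsp-16.2, hsp-16.41, hsp-16.48, hsp-70 and F44E5.5. Of these, hsp-70 had effects of 0.44 and 1.04. With quantile normalization the effects of hsp-70 were 0.87 and 0.93, and its difference was not called (-0.054, limma adjusted p = 0.839). The list was not uniform, since sip-1, a small heat shock gene of embryos, had a difference of -1.76 ± 0.25 and hsp-12.2 one of 3.02 ± 0.23, both with adult effects near 0.

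In the endoplasmic reticulum, where seipin resides, the chaperone gene hsp-4 (BiP) had its genotypes apart in opposite directions in the 2 stages, by under 2-fold in each. It read 4.07 and 4.06 in wild-type compared with 3.24 and 3.38 in knockout embryos, and 3.27 and 3.15 in wild-type compared with 3.94 and 3.84 in knockout adults. No groups overlapped, and the effects of -0.75 and 0.68 gave a difference of -1.43 ± 0.19 (adjusted p = 8.76e-04, adult adjusted p = 0.297). Over the alternatives that difference ran from -2.52 to -0.71, so its size depends on the processing. Over the list of 28 genes 17 passed downward and 1 upward, the transcription factor gene atf-4 at 1.88 ± 0.24, with a median of -0.82. The protein extraction ATPase gene cdc-48.1 had a difference of -1.66 ± 0.24 with an adult effect of 0.03.

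Fat synthesis genes were also among those carried by adults. The palmitoyl-CoA desaturase gene fat-5 read 1.15 and 1.58 in wild-type adults and 4.00 and 3.22 in knockout adults, 4.73-fold higher. In embryos it read -3.04 and -3.52 in wild type compared with -2.57 and -2.25 in the knockout, 1.83-fold apart. The difference was -1.37 ± 0.45 (adjusted p = 0.0310), and the other 3 probes gave between -1.47 and -1.35, although the adult effect did not pass alone (adjusted p = 0.150). The call was lost without array 1 of any of the 4 groups (adjusted p up to 0.0971) and with a replicate block within each stage (0.0665). The stearoyl-CoA desaturase gene fat-7 had effects of -0.73 and 1.19 (difference -1.92 ± 0.66), with adult arrays at 1.5 and 2.73 in wild type compared with 3.79 and 2.82 in the knockout. Its close relative fat-6 had effects of 2.35 and 0.61, so these 2 near-identical genes were sorted apart.

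The diacylglycerol acyltransferase gene dgat-2, of the last step of triglyceride synthesis, read 0.76 and 0.67 in wild-type adults and 1.99 and 1.98 in knockout adults. In embryos it read 0.88 and 0.79 in wild type compared with 0.23 and 0.17 in the knockout. The gene rose 2.41-fold in adults and fell 1.55-fold in embryos, with a difference of -1.90 ± 0.18 (adjusted p = 3.19e-04). Under median scaling its embryo effect was -1.68 and it counted as opposed. On the triglyceride and lipid droplet list 4 of 26 genes passed upward and 14 downward (median -0.76). The acyltransferase gene acl-3 was at -2.15 ± 0.26 and the lipase activator gene abhd-5.1 at 1.36 ± 0.23, both carried by embryos, but the call for abhd-5.1 was lost with median scaling (0.28, adjusted p = 0.373) and quantile normalization (0.25, 0.423). Of 26 fatty acid synthesis, desaturase and elongase genes 13 passed upward and 9 downward, with the omega-3 desaturase gene fat-1 at -2.07 ± 0.22 and the elongase genes elo-9 and elo-2 at 2.17 ± 0.21 and 1.81 ± 0.26. The median of that list, 0.47, turns negative under median scaling.

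Other genes carried by adults were of several kinds. The lactamase-domain gene lact-6 read -3.81 and -4.25 in wild-type compared with -4.41 and -4.84 in knockout embryos. Wild-type adults were at background and knockout adults at least 10.4-fold higher, with a difference of -4.82 ± 0.52 (adjusted p = 4.74e-04). Under median scaling and quantile normalization its embryo effects were -1.64 and -1.57 and it counted as opposed. F36H1.12 was above background in knockout adults alone, at least 2.44-fold higher there. It counted as opposed with median scaling (embryo effect -1.39), and its adult effect was 0.66 with normexp correction. The glucuronosyltransferase gene ugt-14 had a difference of -2.36 ± 0.49 and Y53F4B.8 one of -2.09 ± 0.38. Both counted as opposed with median scaling (embryo effects -1.94 and -1.70) and quantile normalization (-1.86 and -1.14). With normexp correction their adult effects were 0.63 and 0.64, below 2-fold.

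Downward in adults alone, dod-22, an immune gene of the daf-16 pathway, read 0.16 and 0.05 in wild type compared with -2.15 and -1.26 in the knockout. In embryos it lay near background, at -6.65 and -6.53 in wild type compared with -5.46 and -6.04 in the knockout. Its difference was 2.65 ± 0.46 (adjusted p = 0.00243), and the adult effect of -1.81 did not pass alone (adjusted p = 0.278). The nuclear receptor gene nhr-168 had a difference of 2.25 ± 0.44 (1.16 with median scaling, where the adjusted p was 0.0580), with adult arrays at -2.27 and -1.25 in wild type compared with -3.18 and -3.33 in the knockout. B0507.3, known by its sequence name alone, had one of 2.10 ± 0.67, a call lost with median scaling (1.01) and without any 1 embryo array or wild-type adult array 1.

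**Figure D4:**
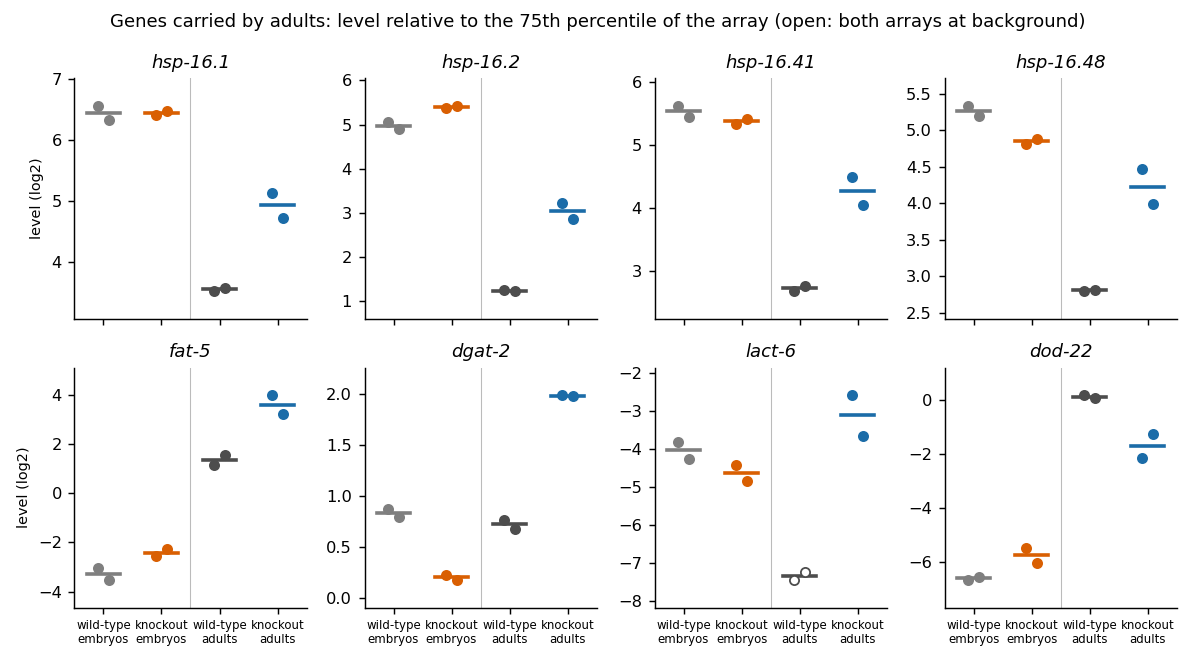
Level of 8 genes carried by adults on each of the 8 arrays (points) with group means (bars), on the log2 scale relative to the 75th percentile of the array, with open points where both arrays of a group were at background. The 4 hsp-16 genes shown are high in embryos of both genotypes and separate by genotype in adults. In knockout adults fat-5, dgat-2 and lact-6 are higher, and dod-22 is lower.

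The 2 stages moved 86 genes in the same direction, 54 upward (0.321%) and 32 downward (0.19%). The difference was called in 20 of the 54 and 5 of the 32, and 20 and 5 were seen in all 4 groups. The count was 166 without wild-type adult array 1, 227 and 174 without knockout adult arrays 1 and 2, and between 84 and 124 without any other array. With normexp correction it was 11, and 18 among genes seen on all 8 arrays.

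The potassium channel gene twk-13 rose in both stages. It read -3.89 and -3.86 in wild-type compared with -0.22 and -0.53 in knockout embryos, and -2.84 and -3.07 in wild-type compared with -0.41 and -0.52 in knockout adults. The rise was 11.3-fold in embryos and 5.63-fold in adults, and its other 2 probes gave differences of 1.12 and 1.15. The difference of 1.0 ± 0.23 (adjusted p = 0.00814) goes to -0.080 with median scaling and 0.00043 with quantile normalization, so which stage rose more is not settled. The gene dod-3, of the daf-16 pathway, rose 6.71-fold in embryos and 4.10-fold in adults. Its difference of 0.71 ± 0.25 (adjusted p = 0.0407) becomes -0.37 with median scaling and -0.43 with quantile normalization, and its call was lost in 11 other alternatives, 5 of which left out 1 array (either wild-type embryo array, knockout embryo array 1, wild-type adult array 2 or knockout adult array 2). F07C3.9 rose in both stages, by 2.05 and 1.56, with a difference of 0.49 ± 0.22 that did not pass (adjusted p = 0.0804). The fatty acid and retinol binding protein gene far-3 had effects of 2.54 and 1.36 and a difference of 1.18 ± 0.33, which became 0.095 with median scaling (adjusted p = 0.815) and missed the threshold without wild-type embryo array 2, knockout embryo array 1 or wild-type adult array 2 (adjusted p up to 0.0567).

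In other genes of this class the difference between the stages did not pass, which does not show that the effects were equal. The caenacin antimicrobial peptide gene cnc-4 read 0.03 on both wild-type embryo arrays and 2.19 and 1.38 in knockout embryos, and -2.15 and -2.35 in wild-type compared with -1.31 and -0.46 in knockout adults. Its difference was 0.39 ± 0.50 (adjusted p = 0.510). Of 9 measured cnc genes, a family looked at after its values were seen, 3 were moved upward in both stages, against 0.321% of all genes. In 6 of the 9 both knockout adult arrays lay above wild type, against 12.6% of all genes, and the median adult effect was 1.0. The 3 moved genes, cnc-2, cnc-3 and cnc-4, are neighbours in the reference annotation and may not be independent. The glucuronosyltransferase gene ugt-15 had effects of 1.57 and 3.15 (difference -1.58 ± 0.64, adjusted p = 0.0634), and T16G1.7, known by its sequence name alone, had effects of 1.80 and 1.67. The immunoglobulin-domain gene zig-10 depended on its probe: the brightest gave an adult effect of 1.32, from knockout arrays at -3.09 and -5.05, and the other 3 gave 0.20, 0.25 and 0.14.

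In 3 of these genes the difference was called and the adult effect was the larger. The short-chain dehydrogenase gene dhs-16 read -3.45 and -3.49 in wild-type compared with -1.12 and -1.04 in knockout embryos, while wild-type adults were at background and knockout adults at least 3.73-fold higher. Its fitted difference of -1.0 ± 0.28 therefore depends on the background, and turned to 0.76 with normexp correction. Its call was lost without wild-type embryo array 1 or wild-type adult array 2. A fall was measured for math-45, a MATH-domain gene, of 2.56-fold in embryos and 4.78-fold in adults. Its difference of 0.90 ± 0.27 (adjusted p = 0.0210) turns to -0.18 with median scaling and -0.15 with quantile normalization, and its call was lost without either wild-type embryo array or without array 1 of either adult group. F58E6.8 fell by 2.63 in embryos and was at least 3.53-fold lower in knockout adults by its brightest probe, where the knockout arrays read -8.79 and -8.78. Its other 3 probes gave adult effects of -0.31, -0.05 and -0.05 and embryo effects from -2.65 to -2.58, so the embryo fall was shared by 4 probes and the adult fall was not. With the mean of its probes the difference was -1.5, and with normexp correction -1.17, in place of 1.43, and it did not pass with median scaling (0.35) or quantile normalization (0.67).

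Among the other genes lower in both stages, the insulin-like gene ins-35 had effects of -2.03 and -1.05 (difference -0.98 ± 0.37, adjusted p = 0.0490). That call was lost in 10 alternatives, with an adjusted p of up to 0.141, among them the omission of any 1 array other than knockout embryo array 2 and knockout adult array 1. The acyltransferase-related gene oac-20 had effects of -2.12 and -1.27, with knockout adult arrays at -0.62 and 0.86 just below the wild-type values of 1.90 and 0.89. C47D12.4, known by its sequence name alone, had effects of -1.79 and -1.34.

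**Figure D5:**
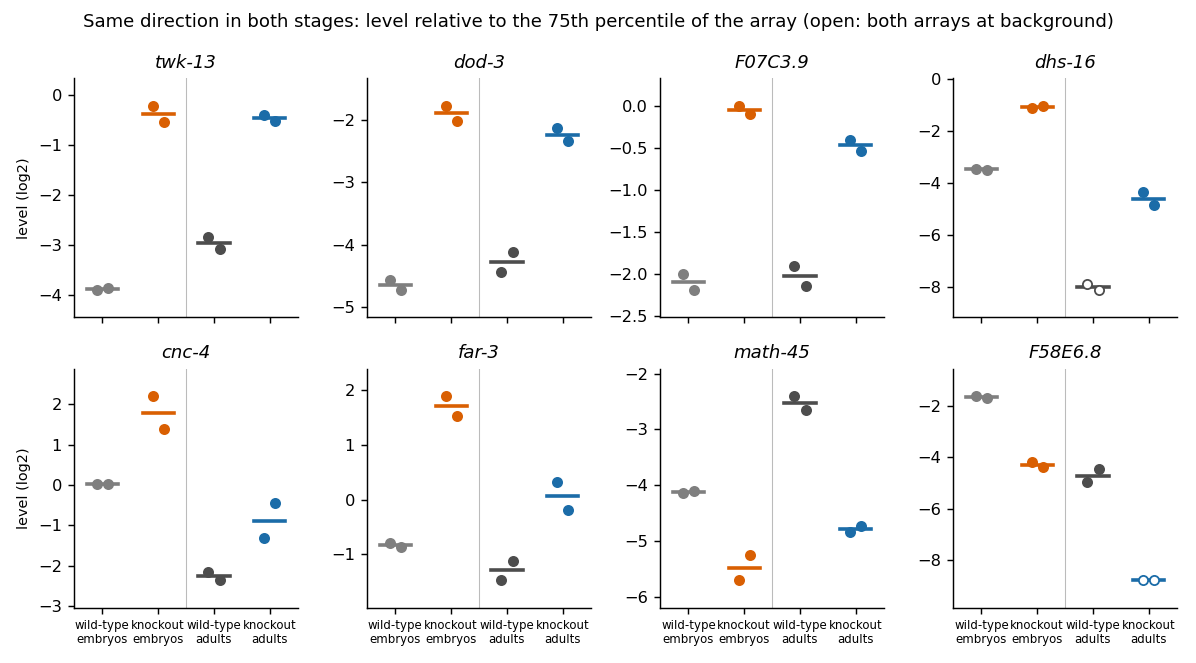
Level of 8 genes moved in the same direction in both stages on each of the 8 arrays (points) with group means (bars), on the log2 scale relative to the 75th percentile of the array, with open points where both arrays of a group were at background. The knockout lies above wild type in both stages for the first 6 genes and below it for math-45 and F58E6.8.

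Chromosome V, which carries seip-1, held different shares of the classes. It held 21.3% of the measured genes. It held 16 of the 24 genes lowered in adults alone (66.7%), 11 of the 24 raised there (45.8%), 29 of the 54 moved upward in both stages (53.7%) and 51 of the 133 opposed genes that were higher in embryos (38.3%). Of the genes moved downward in both stages it held 9 of 32 (28.1%). It held 4 of the 27 of the reverse orientation (14.8%), and of the genes carried by embryos 24.6% of those higher and 16.9% of those lower. Of the 14 adult calls other than seip-1, 8 were on it. Members of gene families lie in clusters, so these genes are not independent, and positions along the chromosome were not analysed here.

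The remaining lists held between 0 and 1 opposed genes each and 0 carried by adults, and their counts stand against 39% upward and 33.6% downward over all genes. In several of them few members reached 2-fold in embryos alone: 14 of the 58 ribosome genes, 13 of 37 of autophagy and 10 of 22 of oxidative stress, against 60.9% of all genes. Of 58 cytosolic ribosome genes 40 passed upward and 1 downward (median difference 0.72), with rpl-22 at 1.4 ± 0.19 (0.32 and not called with median scaling) and rpl-12 at -0.63 ± 0.19 (-0.26 and not called with quantile normalization, and lost without either wild-type embryo array or array 1 of either adult group), and adult effects from -0.15 to 0.11. The median turns negative under median scaling. Of 31 detoxification genes 20 passed upward and 6 downward (1.71). The cytochrome P450 gene cyp-35A3 had a difference of 4.01 ± 0.31 and ugt-22 one of 3.55 ± 0.30. The glucuronosyltransferase gene ugt-25 had effects of -0.80 and 0.71 and a difference of -1.5 ± 0.23, another gene apart in opposite directions below 2-fold. Of 12 mitochondrial stress genes 2 passed upward and 7 downward (-0.90), with the protease gene lonp-1 at -1.49 ± 0.19, ubl-5 at -1.87 ± 0.22 and the small heat shock gene hsp-25 at 2.71 ± 0.19.

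Of 24 phospholipid synthesis genes 5 passed upward and 11 downward (median -0.46). The phosphatidylserine synthase gene pssy-2 had a difference of -2.19 ± 0.26, and the choline kinase-related genes ckc-1 and cka-2 went opposite ways, at -1.67 ± 0.22 and 2.95 ± 0.25. Of 24 sphingolipid genes 12 passed upward and 4 downward (0.63, negative under median scaling), with the sphingomyelinase gene asm-1 at -1.96 ± 0.24. For the glucosyltransferase gene cgt-2 the wild-type embryos were at background, and the knockout embryos were at least 11.6-fold higher. Of 18 osmotic stress genes 10 passed upward and 4 downward (0.69, negative under median scaling). Among them hmit-1.3, an inositol transporter gene, was at 3.02 ± 0.29, osm-11 at 3.15 ± 0.33 and lea-1 at -2.30 ± 0.29. Of 22 oxidative stress genes 9 passed upward and 8 downward (-0.19, positive under quantile normalization), shares close to those of all genes, with the thioredoxin gene trx-1 at 2.86 ± 0.33 and the glutathione reductase gene gsr-1 at -2.0 ± 0.20. Of 37 autophagy and vacuolar ATPase genes 9 passed upward and 12 downward, with a median of 0.04 that turns negative under median scaling. The proton pump subunit genes vha-5 and vha-7 went opposite ways, at 3.25 ± 0.26 and -1.29 ± 0.23.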

How the data were processed

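Each of 8 worm RNA samples, labelled with Cy3, was hybridised to its own single-colour Agilent array. Per the file headers, the authors extracted intensity values with Agilent's Feature Extraction software (version 10.7.1.1, per the submitters' processing notes), and the processed intensity is background-corrected within each array. The deposited value table holds log2 values. Recomputed as log2 processed intensity minus the array's 75th percentile and centred on the wild type of each stage, its differences matched within 0.000382 over 16832 genes.

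Control and outlier spots were left out (4 to 12 outliers per array), spots of a probe were averaged as log2 intensity, and each array's 75th percentile over non-control probes was subtracted. Probes were named by sequence name (31500) or transcript accession (3674), with 8429 unnamed, and a gene was represented by its brightest measured probe. The annotation at hand is of a newer genome build than the array design and served for names, chromosomes and neighbours only. Groups followed the labels. All 8 arrays entered 1 model with a mean per group in limma 3.58.1 (R 4.3.3, two-sided, with 4 residual degrees of freedom and 2.39 from the prior). A stage's effect was tested where a group of that stage was well above background on both arrays. For 6 genes an array's value was missing. A group at background on both arrays gives only a bound, set by the lowest signal among probes above background. The classification was also run on simulated data with independent noise, few altered genes and every gene counted as measured. These arrays differ from that setting, so the run does not bear on the class counts given here. Plots were made in Python 3.11.15 using matplotlib 3.10.9.

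Named genes were chosen by rule: seip-1, up to 6 named genes per class and direction by size of effect, all adult calls, up to 3 per list by adjusted p, the 3 largest bounds, and 1 gene per class known by sequence name. Those given as named after their values were seen, and the members of a list or class named for a count (clec-41, clec-67, irg-6, hsp-70, F44E5.5, fat-7, fipr-22, cest-1.1, cnc-2, cnc-3 and the genes beside a threshold), fall outside it. So do fat-6, hsp-16.20 and hsp-16.21. The classes, the 28 lists and the tests were chosen with earlier results of these data known. Alternatives were median and quantile scaling, normexp correction (offset 50, on the median signal, since mean signals were not used here), 2 filters on dim probes, the mean of probes, another prior, array weights, replicate blocks, a 1.5-fold bound, the deposited value table and each array left out. The replicate numbers were not taken as pairs, because the labels do not say that they mark a shared culture or day. Same-numbered arrays' deviations correlated at 0.00 in embryos and -0.48 in adults.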

Additional observations from a re-analysis of the deposited data

Results flagged for a closer look

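The knockout effect differed between embryos and adults in 6567 genes upward and 5656 downward by the test of the difference itself. Among genes that the test of the difference called and that were opposed or moved more in adults, the differences (log2, embryo minus adult effect) were as follows. Opposed genes had 5.13 for clec-4, 5.64 for bath-47, 5.73 for bath-26, 4.54 for pgp-1, 5.21 for acox-1.5, 4.95 for clec-66 and 5.49 for F49F1.5, and, with the orientation turned, -3.69 for cpt-3 and -4.31 for T08B6.1. Genes carried by adults had -1.37 for fat-5, -1.39 for hsp-16.2, -1.70 for hsp-16.41, -1.83 for hsp-16.48, -1.37 for hsp-16.1, -2.36 for ugt-14 and -2.09 for Y53F4B.8, and, lowered in adults, 2.65 for dod-22, 2.25 for nhr-168 and 2.10 for B0507.3. Genes moved the same way and more in adults had 1.43 for F58E6.8, -1.0 for dhs-16 and 0.90 for math-45, none of which kept its sign under every alternative.

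Probes that could not be named stood outside the comparison. Of 4781 such probes above background on both arrays of a group, 2393 passed the test of the difference (50.1%), 1430 higher and 963 lower in embryos.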

How the results depend on the processing

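The count of genes called for the difference ran from 9871 to 13096 over the alternatives and kept within 1.5 times of 12223, but with median scaling 8569 were lower in embryos in place of 5656. Counts of opposed genes (160) became 36 with normexp correction, 57 among probes above background on all arrays and 469 with a 1.5-fold bound. Same-direction genes (86) became 11, 18 and 275 under these 3, and adult-carried genes (48) became 13 among probes above background on all arrays. Adult calls (15) became 51 with normexp correction, 24 with a trended and robust prior and 8 with array weights. Leaving out 1 array gave 148 to 641 opposed, 40 to 142 adult-carried and 84 to 227 same-direction genes, and 2 to 74 adult calls; the fits assume that the lone array of a group varies like the others. With a replicate block within each stage the difference was called in 10670 genes and adults in 2, and with a block over all arrays in 11547 and 5. With the adult numbers crossed, an alternative added after seeing the data, these counts were 12810 and 1, and the other counts changed by less than 1.5 times under each block.

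The difference changed sign for twk-13 (-0.080), dod-3 (-0.37) and math-45 (-0.18) with median scaling, for dod-3 (-0.43) and math-45 (-0.15) with quantile normalization, for F58E6.8 (-1.17) and dhs-16 (0.76) with normexp correction, and for F58E6.8 (-1.5) and tdc-1 (0.46) with the mean of probes. The cause was not tested. Of the other 2422 values of single genes under an alternative, 2328 kept direction and call and 94 lost the call. Signals near background limit the opposed, adult-carried and same-direction counts.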
